A study of Mus musculus with 8 samples.

Results

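Cornified envelope genes encode the proteins that build the tough, insoluble shell of the outermost, dead cells of the epidermis, together with the enzymes that cross-link it. They were read here in sorted mouse hair follicle stem cells. The set was defined by gene symbol: all small proline-rich genes (Sprr), all late cornified envelope genes (Lce followed by a digit), Lor, Ivl, Flg, Flg2, Rptn, Crnn, Hrnr, and the transglutaminase genes Tgm1, Tgm3 and Tgm5. Of the 28793 symbols in the deposited tables, 44 met this rule, in 48 rows, because Flg had 5 rows that were summed. Of these 44 members, 24 reached 1 FPKM (fragments per kilobase of transcript, scaled for sequencing depth) in at least 1 library. The other 20 stayed below 1 FPKM in all 4 libraries, and 8 of them were listed at 0 in all 4.

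As background, cornification begins when keratinocytes reach the granular layer. Involucrin is laid down early under the plasma membrane, loricrin then becomes the bulk of the shell, and small proline-rich proteins bridge the other components. Late cornified envelope proteins join last, and transglutaminases join all of them by bonds between glutamine and lysine residues. Filaggrin and its relatives, which carry an S100 domain fused to long repeats, bundle keratin filaments inside the cell. Most of these genes lie side by side in the epidermal differentiation complex, and in the follicle they are known from the upper part, near the skin surface, rather than from the bulge where stem cells reside.

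The 4 libraries form 2 pairs, with 1 library in each group and no replicate, so no difference below has a test and all of them describe these libraries. The first pair came from female C57BL6/129Sv mice of postnatal day 99. The library labelled cKO was from K15CrePGR;Ctnnb1fl/fl; Rosa-YFPfl/stop/fl mice, with both copies of the β-catenin gene floxed. The library labelled Het was from K15CrePGR;Ctnnb1+/fl; Rosa-YFPfl/stop/fl mice, with 1 copy floxed, so both carried the Cre and the reporter. Both were from back skin, which the growth protocol places in the resting phase (telogen) and the design text at the onset of growth (anagen). K15CrePGR is a Cre recombinase fused to a progesterone receptor domain and driven by a keratin 15 promoter, which limits recombination to cells in which that promoter is active. The second pair came from male C57BL6 mice of postnatal day 24 that carried the Axin2LacZ/+ reporter of Wnt signalling, with no Ctnnb1 deletion listed. Their bulge cells, taken as follicles left rest for growth, were sorted on the activity of the reporter into a LacZ-positive and a LacZ-negative library. The number of mice behind each library is not stated in the labels.

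Depth is unknown, because FPKM keep no read counts. The libraries held 12582 to 12939 symbols at 1 FPKM or more. Ctnnb1 stood at 370 FPKM in the library labelled cKO, against 251 FPKM in the one labelled Het. This goes against a loss, although a gene-level value does not resolve the deleted part, so these libraries are called by their labels. Bulge markers were present: Cd34 stood at 752 and 645 FPKM in the libraries labelled cKO and Het, and at 223 and 516 FPKM in LacZ-positive and LacZ-negative cells. Axin2, a Wnt target, stood at 2.12 and 16.3 FPKM in the libraries labelled cKO and Het, and at 18.98 and 9.10 FPKM in LacZ-positive and LacZ-negative cells. Krt15, the bulge keratin, stood at 7528 and 6208 FPKM in the libraries labelled cKO and Het; it reached 5951 FPKM in LacZ-positive cells but is listed at 0 in LacZ-negative cells. An exact 0 beside such a level can be a failed estimate.

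Promoter sequences are shown for members whose levels the results turn on, with Sprr2d, listed at 0 in all 4 libraries, for comparison, so that what their regulatory DNA shares can be read directly. Each run is the 200 bases before the RefSeq transcript start in build GRCm38.p6, written 5′ to 3′ on the strand of the gene. Capitals mark matches to TGANTCA, taken here as the site of AP-1 factors with any base at N, which reads the same on both strands. They also mark TATAAA, the TATA box, searched on the strand of the gene.
Sprr1a, chr3:92485882-92486081, minus strand: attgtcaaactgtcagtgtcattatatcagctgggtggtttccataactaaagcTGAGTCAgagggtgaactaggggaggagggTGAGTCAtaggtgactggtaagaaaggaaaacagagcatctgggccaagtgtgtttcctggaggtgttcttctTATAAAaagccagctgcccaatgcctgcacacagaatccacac
Sprr1b, chr3:92438780-92438979, minus strand: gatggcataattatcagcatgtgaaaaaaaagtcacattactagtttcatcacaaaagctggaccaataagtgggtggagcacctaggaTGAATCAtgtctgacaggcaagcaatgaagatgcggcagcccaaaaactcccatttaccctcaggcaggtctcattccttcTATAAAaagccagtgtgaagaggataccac
Lor, chr3:92083143-92083342, minus strand: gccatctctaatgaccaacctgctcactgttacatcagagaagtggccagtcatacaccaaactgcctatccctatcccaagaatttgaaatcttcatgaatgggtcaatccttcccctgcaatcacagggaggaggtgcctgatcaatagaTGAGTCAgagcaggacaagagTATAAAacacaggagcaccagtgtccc
Sprr4, chr3:92500494-92500693, minus strand: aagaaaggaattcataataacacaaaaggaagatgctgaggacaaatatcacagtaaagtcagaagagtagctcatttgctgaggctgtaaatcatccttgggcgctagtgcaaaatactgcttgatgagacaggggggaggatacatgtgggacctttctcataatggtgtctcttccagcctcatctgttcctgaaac
Tgm5, chr2:121085842-121086041, minus strand: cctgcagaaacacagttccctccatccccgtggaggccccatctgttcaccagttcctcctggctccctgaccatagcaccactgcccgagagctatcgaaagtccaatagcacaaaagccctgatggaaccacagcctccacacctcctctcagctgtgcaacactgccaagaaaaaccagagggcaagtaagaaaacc
Sprr2d, chr3:92338940-92339139, plus strand: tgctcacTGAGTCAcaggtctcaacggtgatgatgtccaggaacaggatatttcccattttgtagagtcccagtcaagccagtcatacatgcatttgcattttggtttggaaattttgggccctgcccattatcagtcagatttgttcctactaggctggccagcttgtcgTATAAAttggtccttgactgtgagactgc

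Within 250 bases before the start, TGANTCA occurred in 15 of the 42 promoters of members, or 35.7%, against 6.75% of all 32851 promoters in the table. TATAAA occurred in 19 of the 42, or 45.2%, against 7.59% of all promoters. These 42 promoters belong to 41 members, with Lce1f, Sprr2g and Sprr2j-ps not matched. Neither motif was more frequent in members that reached 1 FPKM: TGANTCA was found in 6 of 24 promoters of members at 1 FPKM or more and in 9 of 18 promoters of members below it, and TATAAA in 9 of 24 and in 10 of 18. Sprr1a held 2 AP-1 matches, 116 and 146 bases before the start, and Sprr1b held 1 at 111 bases. Lor held 1 at 48 bases. Sprr2d, listed at 0 in all 4 libraries, also held 1, at 193 bases, and 7 of 10 Sprr2 members with a promoter sequence had a match. These 7 related genes are among the 15, each with a match 193 to 198 bases before the start, so the 15 are not independent. Sprr4, Tgm5 and the 17 Lce members with a promoter sequence had no TGANTCA in this window, and the printed Sprr4 and Tgm5 sequences hold no capitals. The interval listed for Sprr4 is the shortest among the members, so whether the window before its annotated start is its promoter is uncertain. The TCF/LEF motif CTTTGAT, searched on both strands as CTTTGAT or ATCAAAG, was found in 2 of the 42, those of Flg2 and Tgm1, against 3.21% of all promoters. A match is a description of these letters and not a binding site.

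The levels spanned a wide range in every library. Tgm5 (mm9 chr2:120871846-120911577), a transglutaminase that cross-links envelope proteins in the upper epidermis, was the most abundant member in each. It stood at 345 FPKM in the library labelled cKO and 393 FPKM in the one labelled Het. Its values were 141 FPKM in LacZ-positive and 325 FPKM in LacZ-negative cells. By level it ranked 297th and 235th of 28792 symbols in the libraries labelled cKO and Het, and 604th and 324th in LacZ-positive and LacZ-negative cells. Tgm5 alone made up 77.0% and 67.8% of the summed FPKM of all 44 members in the libraries labelled cKO and Het, and 25.4% and 66.9% in LacZ-positive and LacZ-negative cells. The other members summed to 103 and 186 FPKM in the libraries labelled cKO and Het, and 415 and 161 FPKM in LacZ-positive and LacZ-negative cells.

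**Figure D1:**
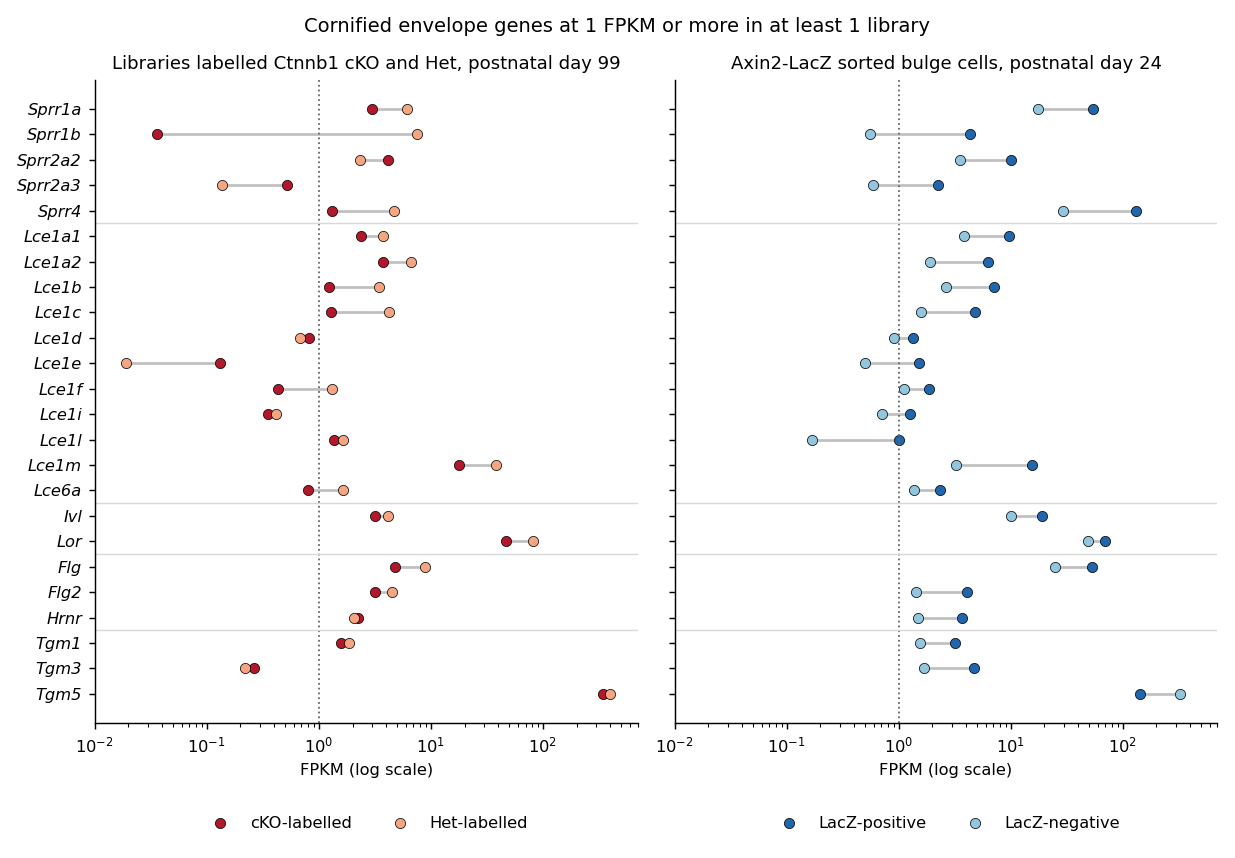
FPKM of the 24 members that reached 1 FPKM, on a log axis, with 1 point per library and a grey line joining the libraries of a pair; the dotted line marks 1 FPKM. Most dark red points (cKO-labelled) lie left of the orange ones (Het-labelled), and every dark blue point (LacZ-positive) lies right of its light blue partner (LacZ-negative) except that of Tgm5, at 141 against 325 FPKM.

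Part of the set was not detected above the threshold. Of 16 Sprr members, 5 reached 1 FPKM: Sprr1a, Sprr1b, Sprr2a2, Sprr2a3 and Sprr4. Sprr2a1 peaked at 0.416 FPKM, and the block from Sprr2b to Sprr2k and Sprr3 peaked at 0.215 FPKM, for Sprr2h in LacZ-negative cells. Of 18 Lce members, 11 reached 1 FPKM, namely 10 of 13 Lce1 genes and Lce6a. The 4 Lce3 genes did not, and peaked at 0.0171 FPKM. Rptn and Crnn, the genes of repetin and cornulin, peaked at 0.242 and 0.128 FPKM, while Flg, Flg2 and Hrnr reached the threshold in all 4 libraries. Just above the threshold lay Lce1i, with a highest value of 1.26 FPKM, and just below it Lce1j, with 0.747 FPKM. In all, 15 members reached 1 FPKM in all 4 libraries.

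**Figure D2:**
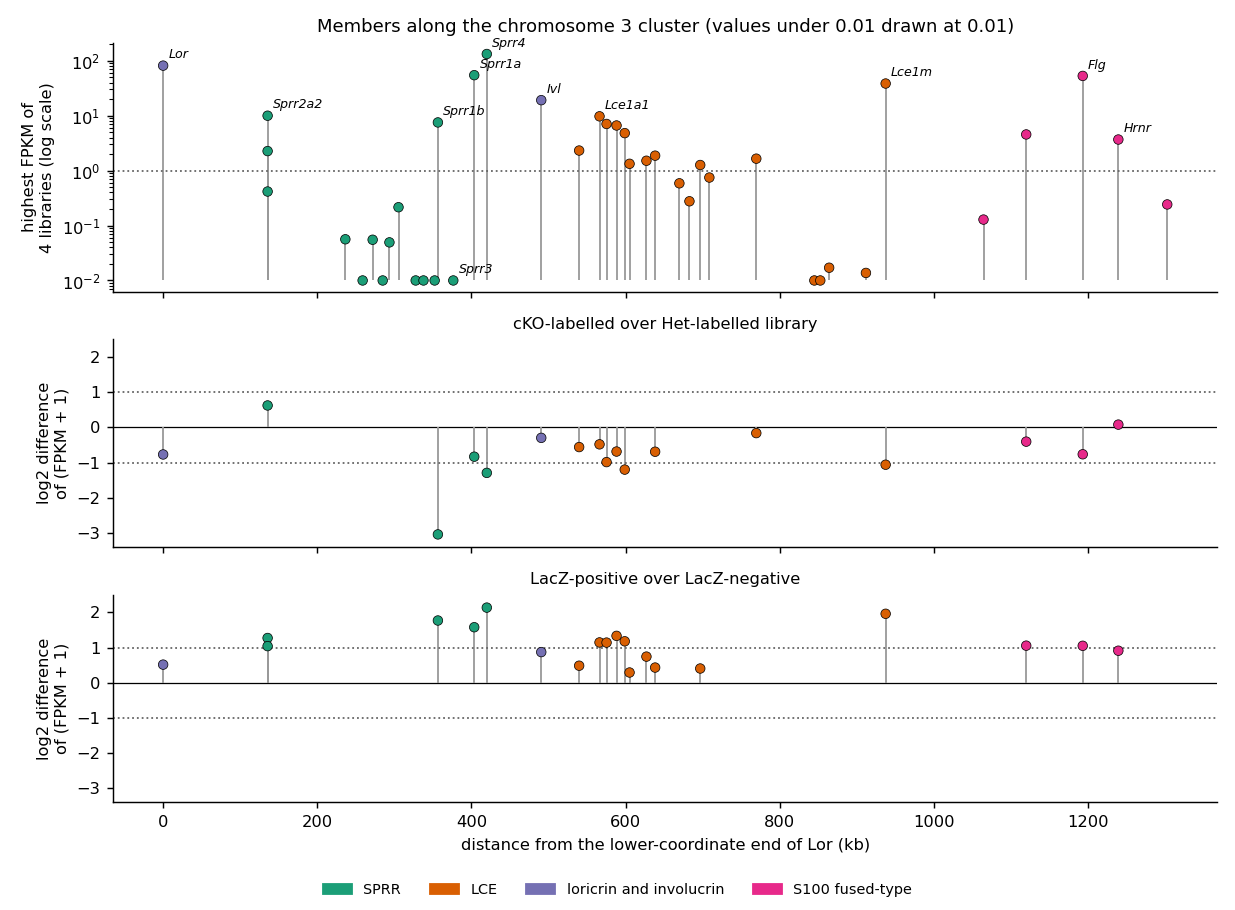
The 41 members on chromosome 3 by distance from Lor in kb, coloured by family: the highest FPKM of the 4 libraries on a log axis (top), and the log2 difference of (FPKM + 1) within each pair for members at 1 FPKM or more (middle and bottom). The genes from Sprr2b to Sprr2k and the Lce3 genes stay below 1 FPKM, values under 0.01 FPKM are drawn at 0.01, and measured genes across the interval are mostly below 0 in the middle panel and all above 0 in the bottom panel.

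The first comparison asks how stem cells with both copies of Ctnnb1 floxed differ from those with 1 copy floxed. Most measured members were lower in the library labelled cKO, with Sprr1b, Sprr4, Lce1c and Lce1m past 2-fold, and the cross-linking enzymes were close to equal. Each difference is a log2 ratio of FPKM + 1, first library over second, which understates changes of low genes, counted where either library reaches 1 FPKM. In bulk RNA, fewer cells that express a gene and less RNA per cell cannot be told apart. Of 19 measured members, 17 were lower by any amount (39.1% of all 13014 measured genes) and 2 were higher by any amount (60.9% of all). Their median was -0.68, against 0.06 for all measured genes. By 2-fold or more, 4 were lower (2.29% of all genes) and 0 were higher (1.80% of all genes). The other 25 members were below 1 FPKM in both libraries.

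A member can pass the minimum through 1 library alone, which forces a difference. This was so for Sprr1b, Lce1f and Lce6a, all 3 through the library labelled Het. With a pseudocount of 0.1, Lce1f (-1.41) and Lce1b (-1.40) lay beyond Lce1m (-1.10). Among the 16 members at 1 FPKM or more in both, 14 were lower by any amount (38.1% of such genes), 2 were higher by any amount (61.9%), and 3 were lower by 2-fold or more (1.03% of such genes). With no minimum, 22 of 32 members above 0 were lower and 10 higher, where 42.8% of 20055 genes were lower and 57.2% higher. The members' median was then -0.18, against 0.02 for all these genes.

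Among the bridging proteins, Sprr1b (ENSMUSG00000048455, mm9 chr3:92240730-92242701) stood at 0.0362 FPKM in the library labelled cKO and 7.52 FPKM in the one labelled Het. The log2 difference was -3.04, rank 79 from the lowest of 13014 genes. The authors' deposited table gives -7.70 for the plain ratio, so the size depends on the pseudocount, and it rests on a value near 0 of unknown depth. Sprr1a, nearby, stood at 2.99 and 6.10 FPKM in the libraries labelled cKO and Het (-0.83), and Sprr4 at 1.31 and 4.65 FPKM (-1.29). These 3 genes lie within a single stretch of the cluster, and each was lower. Between Sprr1b and Sprr1a lies Sprr3, listed at 0 in all 4 libraries. The Sprr sum was 9.22 and 20.8 FPKM in the libraries labelled cKO and Het (-1.09 on log2 of the sum plus 1), and without Sprr1b its difference was -0.49. Sprr2a2 ran the other way, at 4.13 FPKM in the library labelled cKO and 2.32 FPKM in the one labelled Het (0.63). Sprr2a1, Sprr2a2 and Sprr2a3 share 1 interval in the tables and are near-identical copies, so the split of reads between them is uncertain; their sum was 4.83 and 2.55 FPKM in the libraries labelled cKO and Het.

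All 8 measured Lce members, which encode late envelope proteins, were lower in the library labelled cKO, with the direction of Lce1f and Lce6a fixed by the minimum. Lce1m, the most abundant of them, stood at 17.9 FPKM in the library labelled cKO and 38.4 FPKM in the one labelled Het (-1.06). Lce1c stood at 1.28 and 4.24 FPKM in the libraries labelled cKO and Het (-1.20). Lce1b, at 1.23 and 3.42 FPKM in the libraries labelled cKO and Het, lay just inside the 2-fold line (-0.98), and past it (-1.05) when centred on the median of genes that reach 5 FPKM in both. Lce1a1 stood at 2.41 and 3.75 FPKM (-0.48) and Lce1a2 at 3.74 and 6.62 FPKM (-0.68). The differences of Lce1f (-0.69) and Lce6a (-0.56) rest on values of 0.430 and 0.799 FPKM in the library labelled cKO, and the smallest was that of Lce1l (-0.16). The Lce1 genes resemble each other in sequence, and how reads matching several of them were counted is not stated in the sources.

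The major shell proteins were also lower, within 2-fold. Lor, the gene of loricrin, stood at 47.4 FPKM in the library labelled cKO and 81.3 FPKM in the one labelled Het (-0.77). Ivl, the gene of involucrin, stood at 3.16 and 4.11 FPKM in the libraries labelled cKO and Het (-0.30). The summed Flg rows, for filaggrin, stood at 4.83 and 8.88 FPKM in the libraries labelled cKO and Het (-0.76). Each of the 5 rows was lower, so this difference did not come from 1 row. The rows are neighbouring intervals of 1 gene, so they are not independent, and their sum is not the FPKM of 1 transcript. Flg2 stood at 3.19 and 4.55 FPKM (-0.40), while Hrnr, the gene of hornerin, was close to equal at 2.24 and 2.07 FPKM (0.08). The enzymes hardly differed: Tgm1, bound to the membrane of keratinocytes, was at -0.16 and Tgm5 at -0.19, while Tgm3, known from hair and granular cells, was below 1 FPKM in both.

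**Figure D3:**
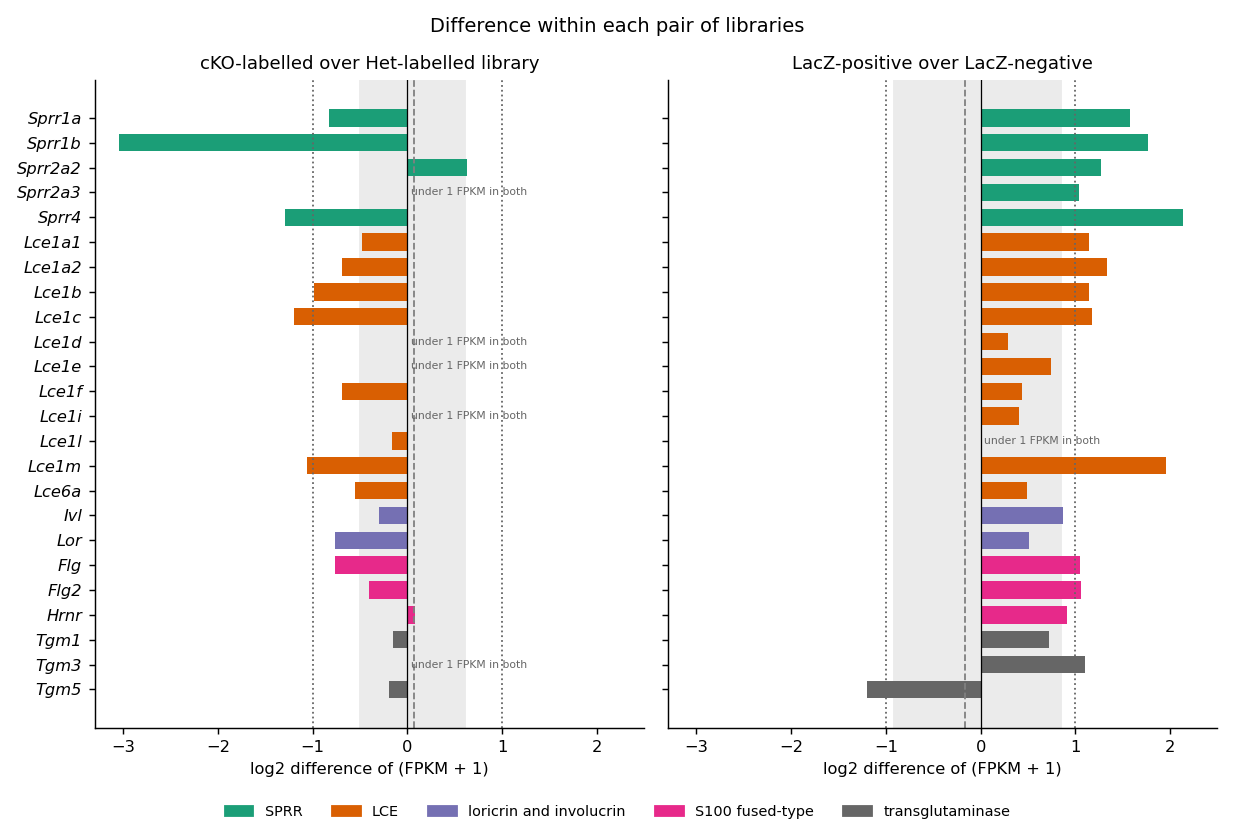
Log2 difference of (FPKM + 1) for each member, coloured by family, in the cKO-labelled over the Het-labelled library (left) and LacZ-positive over LacZ-negative cells (right). Dotted lines mark 2-fold, the grey band holds the central 95% of genes that reach 5 FPKM in both libraries, and the dashed line is their median (0.07 left, -0.17 right); 17 of 19 bars point left in the first panel and 22 of 23 point right in the second.

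The second comparison sets bulge cells with an active Axin2 reporter against those in which it was not active. The envelope genes were higher in LacZ-positive cells across the Sprr, Lce, loricrin and filaggrin families, and Tgm5 was lower. Of 23 measured members, 22 were higher by any amount (36.6% of all 13283 measured genes) and 1 was lower by any amount (63.4% of all). By 2-fold or more, 13 were higher (4.67% of all genes) and 1 was lower (2.60% of all genes). The median was 1.05, against -0.13 for all measured genes. The median of genes that reach 5 FPKM in both was -0.17, and the members' median lay 1.22 above it. Centring on that median gave 15 members higher by 2-fold or more (6.05% of all genes) and 1 lower (1.69% of all genes). Among all genes past 2-fold, the share that was higher was then 78.2%, against 64.2% without it.

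Of these 23, 5 passed the minimum through LacZ-positive cells alone: Lce1d, Lce1e, Lce1i, Sprr1b and Sprr2a3. Among the 18 members that reach 1 FPKM in both libraries, 17 were higher by any amount (34.5% of such genes), 1 was lower by any amount (65.5%), and 11 were higher by 2-fold or more (2.95% of such genes). With no minimum, 30 of 35 members above 0 were higher and 5 lower, where 43.7% of 20245 genes were higher and 56.3% lower. The members' median was then 0.72, against -0.03 for all these genes. The other 21 members were below 1 FPKM in both libraries; among them Lce1l stood at 0.998 and 0.167 FPKM in LacZ-positive and LacZ-negative cells.

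Sprr4 (mm9 chr3:92304184-92304415) had the largest difference of the members on this scale; with a pseudocount of 0.1 it was 2.17, below Sprr1b (2.75) and Lce1m (2.22). Its level was 132 FPKM in LacZ-positive and 29.3 FPKM in LacZ-negative cells, a log2 difference of 2.14 that ranked 159 from the highest of 13283 genes. Sprr4 made up 31.9% and 18.2% of the summed FPKM of the members other than Tgm5 in LacZ-positive and LacZ-negative cells. Its interval is the shortest among the members, and FPKM divide by transcript length, so the precision of its level and share is uncertain. All 5 measured Sprr members were past 2-fold upward, although the minimum fixed the direction of Sprr1b and Sprr2a3. Sprr1a stood at 54.5 and 17.6 FPKM in LacZ-positive and LacZ-negative cells (1.58), Sprr1b at 4.30 and 0.555 FPKM (1.77), and Sprr2a2 at 9.97 and 3.54 FPKM (1.27). Sprr2a3, one of its near-identical copies, was at 1.04 on the log2 scale. The Sprr sum was 204 FPKM in LacZ-positive and 52.0 FPKM in LacZ-negative cells, and without Sprr4 it was 71.6 and 22.6 FPKM, so the family difference did not rest on that gene alone.

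All 10 measured Lce members were higher in LacZ-positive cells, 5 of them by 2-fold or more. For Lce1d, Lce1e and Lce1i the minimum fixed the direction, since they passed it through LacZ-positive cells alone. Lce1m stood at 15.5 FPKM in LacZ-positive and 3.23 FPKM in LacZ-negative cells (1.96), and Lce1a2 at 6.27 and 1.88 FPKM (1.33). Lce1c, Lce1a1 and Lce1b were at 1.18, 1.15 and 1.14 on the log2 scale. The other 5 were within 2-fold: Lce1e (0.74), Lce6a (0.48), Lce1f (0.43), Lce1i (0.40) and Lce1d (0.29). Their levels in LacZ-positive cells were 1.26 to 2.32 FPKM.

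Among the shell and filament proteins, Lor stood at 69.8 FPKM in LacZ-positive and 48.5 FPKM in LacZ-negative cells (0.52), a smaller difference than those of the Sprr members. Ivl stood at 19.1 FPKM in LacZ-positive and 9.997 FPKM in LacZ-negative cells (0.87). The summed Flg rows stood at 52.8 and 25.0 FPKM in LacZ-positive and LacZ-negative cells (1.05). Each of the 5 rows was higher, but the most abundant, at 22.2 and 14.8 FPKM in LacZ-positive and LacZ-negative cells, differed least; taken alone it gave 0.55 and lay inside the 2-fold line. Flg2 stood at 4.04 and 1.43 FPKM (1.05) and Hrnr at 3.68 and 1.49 FPKM (0.91).

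The transglutaminase genes went in opposite directions. Tgm3 stood at 4.74 FPKM in LacZ-positive and 1.68 FPKM in LacZ-negative cells (1.10), and Tgm1 at 3.20 and 1.54 FPKM (0.72). Tgm5 was the member that was lower, with a log2 difference of -1.20, or -1.03 relative to the median of all genes at 5 FPKM or more. Of the 8 genes of the bulge list, 4 were lower by any amount, where 63.4% of all measured genes were. They were Cd34 (-1.21), past 2-fold, Lhx2 (-0.74), Sox9 (-0.52) and Tcf3 (-0.31). The 4 higher ones were Tcf4 (0.37), Nfatc1 (0.09), Itga6 (0.05) and Krt15, whose direction rests on the listed 0 in LacZ-negative cells. The symbols Tcf3 and Tcf4 are also those of genes other than the bulge factors of these names, so these entries may not be bulge markers. The companion layer and inner bulge markers were all 4 past 2-fold downward: Krt6a (-1.50), Krt6b (-1.35), Krt75 (-1.42) and Fgf18 (-1.61). Of all measured genes 2.60% were, and the part of these 4 markers in the result was not tested. The summed FPKM of those 4 companion layer and inner bulge markers was 199 and 564 in LacZ-positive and LacZ-negative cells. In the first pair it was 487 and 209 in the libraries labelled cKO and Het, with Krt6a (1.29) and Krt6b (1.32) past 2-fold.

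Across both pairs, which share no library, 18 members were measured in each. Of these, 15 were lower under the cKO label and also higher where LacZ was active, a combination held by 16.3% of the 12499 genes measured in both pairs. Sprr1b, Sprr4, Lce1c and Lce1m did so by 2-fold or more each time, against 0.672% of all genes. These counts hold Sprr1b, Lce1f and Lce6a, whose direction the minimum fixed. Among the 15 members at 1 FPKM or more in all 4 libraries, 12 had this combination (15.1% of 11766 such genes) and Sprr4, Lce1c and Lce1m did so past 2-fold both times (0.238%). Hrnr and Sprr2a2 were higher in both, and Tgm5 was lower in both. The tables were scaled separately, so levels are not compared across them.

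**Figure D4:**
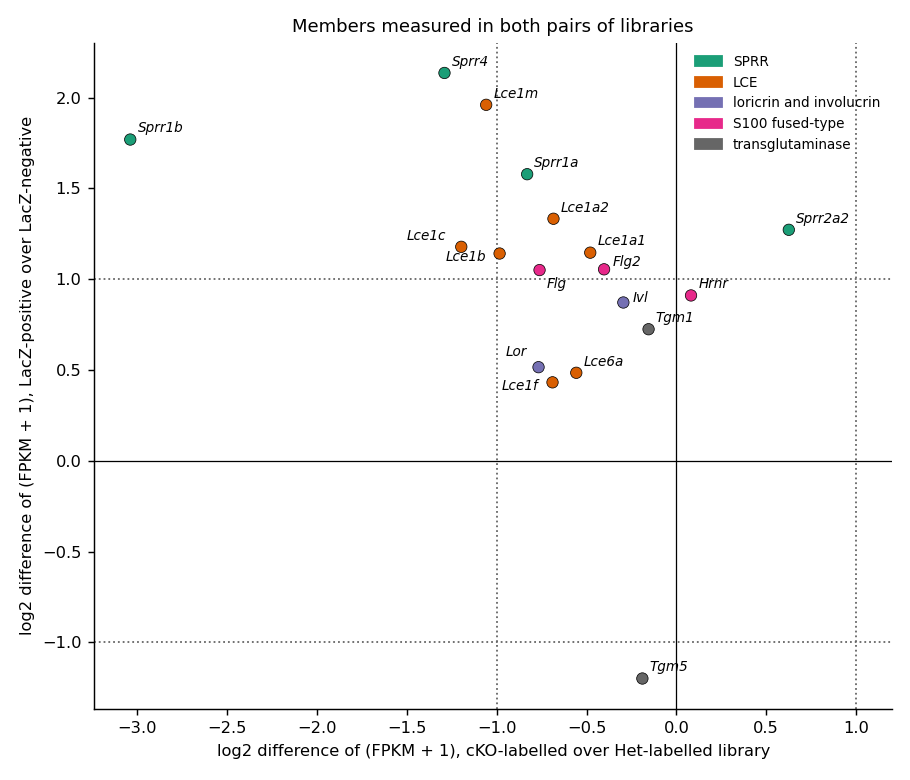
The 18 members measured in both pairs, with the log2 difference of (FPKM + 1) of the cKO-labelled over the Het-labelled library on the horizontal axis and of LacZ-positive over LacZ-negative cells on the vertical axis; dotted lines mark 2-fold. The upper left holds 15 members, Sprr2a2 and Hrnr lie at the upper right, and Tgm5 lies alone at the bottom.

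Other genes of cornification come from lists chosen with earlier results of these data known. In the library labelled cKO, spinous layer genes, which act one step before the granular layer, had a median of 0.17, with 10 of 11 higher and 0 past 2-fold; Krt10 stood at 480 FPKM in the library labelled cKO and 430 FPKM in the one labelled Het. Scaffold and junction genes such as Evpl and Ppl had a median of -0.01 (13 measured, 0 past 2-fold), with Cnfn, the gene of cornifelin, lowest at -0.95. Barrier lipid genes had a median of 0.11 (11 measured, 0 past 2-fold). Proteases and inhibitors had a median of -0.12 (12 measured, 0 past 2-fold), with Asprv1, the gene of a protease that processes filaggrin, lowest at -0.81. Of 18 transcription factor genes of late differentiation, 13 were lower and 1 by 2-fold or more, Pou3f1, at 3.83 and 11.2 FPKM in the libraries labelled cKO and Het (-1.34). By any amount, 8 of 13 scaffold and junction genes, 8 of 12 proteases and inhibitors and 4 of 11 barrier lipid genes were lower, where 39.1% of all measured genes were. No difference between these lists and the envelope genes was tested.

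In LacZ-positive cells, 3 of 11 spinous layer genes were higher by 2-fold or more, all keratins: Krt1 (1.54), Krt10 (1.24) and Krt77 (1.22). Calml3 (-0.94) and Dmkn (-0.49) were lower within 2-fold, and the median was 0.07. Of 13 scaffold and junction genes, 10 were higher, 5 by 2-fold or more: the desmosomal cadherin genes Dsc1 (1.53), Dsg1a (1.45) and Dsg1b (1.27), the protease inhibitor gene Cst6 (1.51), which is also in the upper follicle list, and Krtdap (1.15). Evpl and Pkp3 were at -0.38 and -0.68. Of 12 barrier lipid genes, 10 were higher, 3 by 2-fold or more, namely the lipid transporter gene Abca12 (1.52), the fatty acid elongase gene Elovl4 (1.22) and Cyp4f39 (1.06). Of 13 proteases and inhibitors, 8 were higher, 3 by 2-fold or more: Klk7 (1.42), Spink5 (1.26) and Asprv1 (1.02), which act in shedding and in filaggrin processing. Of 18 transcription factor genes, 8 were higher, and Zfp750 (1.33) and Grhl3 (1.21), regulators of terminal differentiation, were past 2-fold upward. Lower within 2-fold were 10, led by Cebpb (-0.89), Maf (-0.87) and Hopx (-0.73). Of all 13283 measured genes in this pair, 36.6% were higher by any amount, 63.4% lower by any amount and 4.67% higher by 2-fold or more. No difference between these lists and all genes was tested.

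**Figure D5:**
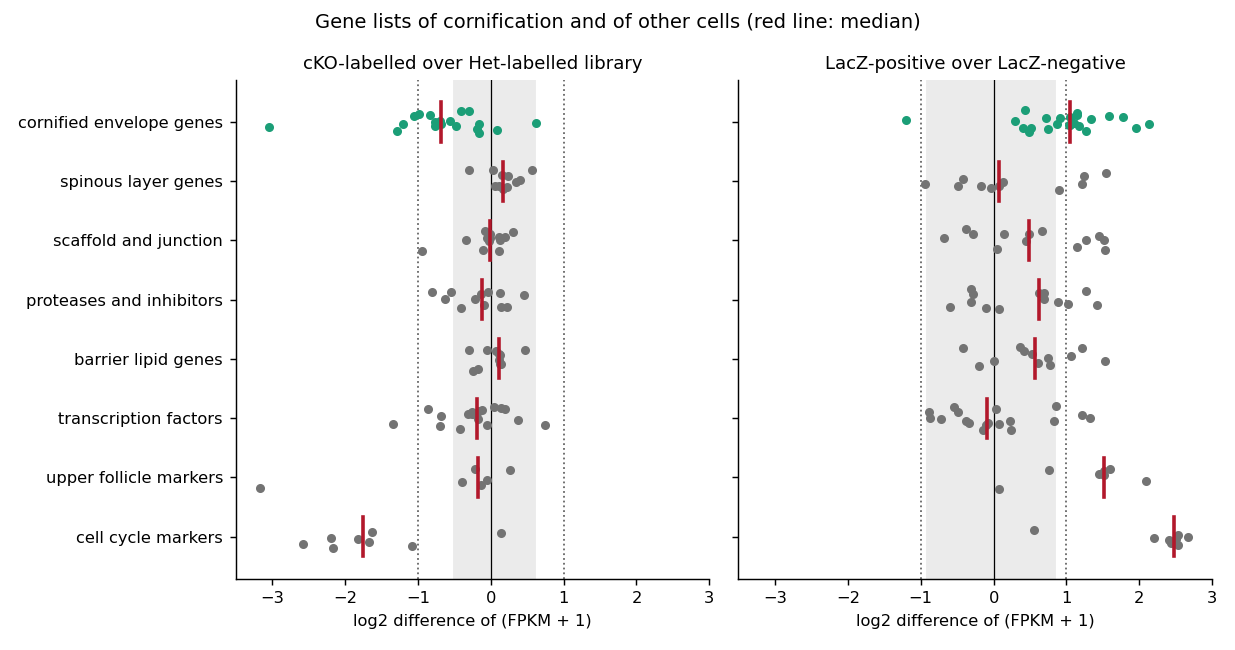
Log2 difference of (FPKM + 1) of each measured gene (points) and the median (red line) of the envelope genes, of 5 other lists of cornification, and of upper follicle and cell cycle markers, in the cKO-labelled over the Het-labelled library (left) and LacZ-positive over LacZ-negative cells (right); the grey band holds the central 95% of genes that reach 5 FPKM in both libraries. The envelope genes have a median of -0.68 on the left, where the 5 other cornification lists lie between -0.19 and 0.17, and a median of 1.05 on the right, where those lists lie between -0.09 and 0.63. Upper follicle markers have medians of -0.17 on the left and 1.51 on the right, and cell cycle markers of -1.75 and 2.47.

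Within the chromosome 3 interval from Lor to Rptn (mm9 chr3:91884196-93203364), 12 other symbols had all their rows, and 4 of these reached 1 FPKM. Crct1 stood at 17.2 and 34.3 FPKM in the libraries labelled cKO and Het (-0.95) and at 21.2 and 8.33 FPKM in LacZ-positive and LacZ-negative cells (1.25). Kprp, which encodes a keratinocyte proline-rich protein, was at -0.41 and 0.73 in the first and second pair. 2310050C09Rik was at -0.10 and 0.81, and Gm9774 at 0.11 and -0.50.

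Some markers of other cells also differed within the pairs. Of the upper follicle list, 7 of 8 genes were in the tables. In the second pair all 7 were higher in LacZ-positive cells (36.6% of all measured genes), 5 by 2-fold or more (4.67% of all). Their summed FPKM was 1597 in LacZ-positive cells, against 453 in LacZ-negative ones, led by Defb6 at 1031 and 241 FPKM and Krt79 at 362 and 119 FPKM. Lgr6 (1.51), Cst6 (1.51) and Gata6 (1.45) were the other 3 past 2-fold. In the first pair 5 of 6 measured upper follicle genes were lower (39.1% of all measured genes). The summed FPKM of the list was 126 and 154 in the libraries labelled cKO and Het. Most of that difference was Lgr6, past 2-fold at 2.04 and 26.2 FPKM. The other lower genes, Klk10 (-0.39), Krt79 (-0.21), Defb6 (-0.13) and Cst6 (-0.05), were within 2-fold, and Lrig1 was higher (0.27). No gene of the list was at 0 in any library. Of 8 cell cycle markers, 7 were lower by 2-fold or more in the library labelled cKO (2.29% of all measured genes). In LacZ-positive cells 7 were past 2-fold upward (4.67% of all). Top2a, the gene of a topoisomerase of dividing cells, stood at 1.11 and 11.6 FPKM in the libraries labelled cKO and Het, and at 38.3 and 6.42 FPKM in LacZ-positive and LacZ-negative cells. The others past 2-fold in both pairs were Mki67, Ccna2, Cdk1, Ccnb1, Cenpf and Foxm1, at -2.19 to -1.08 in the first pair and 2.20 to 2.67 in the second. The part of upper follicle cells and of dividing cells in the envelope gene differences was not tested. Inner root sheath and hair shaft markers were low outside of Krt25, with a summed FPKM of 4.59 and 4.56 in the libraries labelled cKO and Het, and of 10.1 and 52.8 in LacZ-positive and LacZ-negative cells, of which Krt25 held 1.13 and 47.7 FPKM. Leukocyte and fibroblast markers summed to 8.56 and 23.1 FPKM in the library labelled cKO, 5.35 and 14.7 FPKM in the one labelled Het, 4.85 and 10.9 FPKM in LacZ-positive cells and 3.51 and 18.0 FPKM in LacZ-negative cells. Among them Col1a1 was past 2-fold in the first pair (1.26) and Dcn in the second (1.15), and Lyz2 was at 0 in LacZ-positive cells. Sebaceous markers summed to 78.5 and 62.3 FPKM in the libraries labelled cKO and Het, and to 102 and 93.1 FPKM in LacZ-positive and LacZ-negative cells; the gland-specific Mc5r, Awat1 and Awat2 lay at or below 1.56 FPKM throughout, with Mc5r at 0 in LacZ-negative cells.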

How the data were processed

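Groups were taken from the sample labels; 4 RNA libraries, 1 per group, were used, and 4 chromatin immunoprecipitation and input samples were not analysed here. Per the labels' protocols, libraries were made with Illumina's TruSeq mRNA kit and run on a HiSeq instrument. The authors deposited FPKM values in 2 gene tables, per the file headers. The submitters' processing notes name TopHat2 2.0.4, Cufflinks 2.1.1, and both mm9 and GRCm38; how multi-mapping reads and strand were handled is not given there. The authors also deposited a log2 fold change of cKO over Het; for all 34 member rows above 0 in both libraries, it lies within 0.01 of the value recomputed from FPKM. Table coordinates are taken as mm9, since on chromosome 7 they reach 152509964, beyond the last GRCm38 gene end of 145324059.

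Rows of a symbol were summed, and 25 symbols turned into dates by a spreadsheet were restored from Ensembl identifiers. Differences are on the log2(FPKM + 1) scale, where either library reaches 1 FPKM; 1 or more in size counts as 2-fold. Groups of 1 library allow no test. FPKM divide by all fragments, so abundant features shift every other value. The mitochondrial transfer RNA mt-Ts1 took 20.6% to 28.1% of the summed FPKM. FPKM also divide by transcript length and this RNA is short, so that is not its share of fragments. Members and the 14 gene lists (128 genes, 125 in the tables) were chosen with earlier results of these data known. Every member at 1 FPKM or more is named or counted; of the other lists, members past 2-fold and up to 3 with the largest differences are named, and further ones, such as Krt10 in the first pair, Evpl, Ppl, Pkp3, Calml3, Dmkn, Maf, Hopx and the non-members on chromosome 3 (without U6, which has 2 of 936 rows there), were added after their values were seen. The AP-1 motif was planned; the TATA and TCF/LEF motifs were added later. Alternatives were pseudocounts of 0.1 and 5, no minimum or a minimum of 5 FPKM, centring, scaling to the upper quartile, taking each symbol's highest row, genes above 0 in both libraries and genes alone in their interval. Leaving out Tgm5 or Flg was chosen after seeing the data. The counting code was checked on copied libraries with known changes and no noise, which says nothing about error between real libraries. Python 3.11.15 with pandas 2.3.3 was used.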

Additional observations from a re-analysis of the deposited data

How the results depend on the processing

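No paired analysis was possible because each group holds 1 library. With a threshold of 5 FPKM, 12 members remain instead of 24. The pseudocount moved the counts most. In the cKO-labelled library, 7 members were lower by 2-fold or more with a pseudocount of 0.1 (3.40% of all genes), 1 (Sprr1b) with a pseudocount of 5 (1.22%) and 2 with a minimum of 5 FPKM (1.98%), against 4 as reported. The members' median of -0.68 was -0.24 with a pseudocount of 5 and -0.18 with no minimum. The log2 difference of the summed Sprr FPKM was -1.09 and moved to -1.84 with genes alone in their interval, which leaves out the Sprr2a copies. In LacZ-positive cells, 13 members were higher by 2-fold or more; 3 were (Sprr1a, Sprr4 and Lce1m) with a pseudocount of 5 (2.12% of all genes) and 8 with a minimum of 5 FPKM (4.46%). The median of 1.05 was 0.54 with a pseudocount of 5. Without Tgm5, 0 members were lower by 2-fold or more, by construction. Of 351 values of single members under the other settings, none changed sign. Only centring, upper-quartile scaling and the highest row of Flg could change one. A pseudocount keeps the sign, and settings that only leave out genes keep the value. Of the 351, 322 kept their side of the 2-fold line and moved by at most 1.5 times in fold. Another 14 dropped inside the line and 10 passed it. The last 5 stayed beyond the line but moved by more. With a pseudocount of 5, Sprr1b in the first pair (-1.31) and Lce1m in the second (1.31) moved towards the line. Leaving out Flg left 12 members instead of 13 past 2-fold upward in the second pair; this choice and that of Tgm5 were made after seeing the data. Depth is unknown, so values far below 1 FPKM, such as that of Sprr1b in the cKO-labelled library, have no stated precision.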
